A study of Thlaspi arvense with 6 samples.

Results

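Vesicle coats, the adaptors that load them and the machinery that sorts cargo to the vacuole were followed through nectary maturation in pennycress (Thlaspi arvense). Members were taken by the words of their Arabidopsis descriptions: clathrin, coatomer, adaptin, adaptor, Sec23, Sec24, sorting nexin, vacuolar sorting, VPS, ENTH or dynamin. These words matched 121 of the 12335 pennycress loci of the table, and 119 of the 121 were tested, having averaged 100 or more normalized counts in one of the stages. By their Arabidopsis matches 109 of the members had a placed role in coats, adaptors or sorting. Of the rest, 6 were ENTH or VHS domain proteins of no placed role and 6 carried one of the words without being part of such a complex, among them 4 ribosomal L12 or ClpS adaptor-like proteins and the SNARE SNAP33.

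The study compared nectaries of cultivar MN108 before secretion (immature, equivalent to Arabidopsis flower stages 11 to 12) with nectaries that secreted nectar (mature, stages 14 to 15), with 3 samples of each. All plants were about 40 days old, with no treatment named, and nectaries were dissected by hand 4 to 8 h after dawn and pooled, each sample from its own set of plants. The labels give about 100 nectaries per pool, and the paper states another number and other growth conditions. The values are read counts per contig that the authors upper-quartile normalized, summed here over the contigs of a locus.

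Membrane proteins and cargo leave the endoplasmic reticulum in COPII vesicles, return from the Golgi in COPI vesicles, and leave the trans-Golgi network and plasma membrane in clathrin-coated vesicles, whose cargo is picked by heterotetrameric adaptor (AP) complexes and by monomeric ENTH and ANTH proteins. At the endosome, TOL proteins and the ESCRT complexes gather ubiquitinated membrane proteins into vesicles inside the multivesicular body, which fuses with the vacuole, while retromer carries receptors away from that route. Nectar is secreted by cells with an active endomembrane system, and sucrose leaves them through the exporter SWEET9.

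The reads counted on contigs were estimated from the spacing of low values at approximately 11.7 to 16.9 M per sample, which is not the number of reads sequenced, and 4.32 to 14.7 M of them lay outside ribosomal RNA and organelle transcripts, the fewest in mature replicate 2, where ribosomal RNA took 63.0% of the counts. Mature replicate 2 was the lowest of the 3 mature samples in 86.0% of the members and in 66.9% of all tested loci. All 5 nectary markers were present. SWEET9 was 22.9-fold, JMT 4.72-fold, CWINV4 3.22-fold and CRC 1.55-fold higher in mature nectaries. MNC1 went the other way, with a mature mean 0.231 times its immature mean. Of 16 pollen and anther markers 10 were found, none at 0, and they summed to 432 to 694 normalized counts in immature and 32454, 3734 and 10539 in mature replicates 1, 2 and 3. Of 5 phloem markers 4 were found, summing to 585 to 1234 in immature and 143 to 184 in mature samples. SEOR1 and SEOR2, which mark sieve elements, were at 3 to 14 in the mature samples. PP2-A1 stood at 79, 214 and 90 in immature and 58, 47 and 51 in mature samples. SUC2 overlapped between the stages, at 102, 220 and 75 against 87, 70 and 118. Of 5 stomatal markers 2 were found, summing to 655 to 812 and 566 to 681. The part of pollen, phloem or guard cells in the results below was not tested, beyond the values given beside them.

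Over the whole set, more loci rose than fell. By limma on log2 of the summed counts, with p-values adjusted over all 11780 tested loci and called under 0.05, 36 of 119 members were higher in mature nectaries (30.3%, where 28.4% of all tested loci were), 16 were lower (13.4%, where 35.9% were) and 67 were not called. In either direction 43.7% of the members were called and 64.3% of all tested loci. Over 2-fold, 12 members were higher (10.1%, against 13.8%) and 4 lower (3.36%, against 23.0%). The stages did not overlap in 67 of the 119 (56.3%, against 70.1%), and the median log2 fold change was 0.10, against -0.09 over all tested loci. Among the members, 9 passed the count minimum only through the mature mean and 8 of these were called higher, while 6 passed only through the immature mean and 4 of these were called lower. The opposite call was not possible for these loci. The 8 were CLC3, Ta08891 and 6 loci of the ENTH and ANTH adaptors, and the 4 were Ta08732, Ta04654, Ta02237 and Ta01477, all described below. The split depended on the scaling. With samples scaled to their totals without ribosomal RNA and organelle transcripts, 34 members were higher and 38 lower, and with median-ratio scaling 52 were higher and 17 lower. Leaving out mature replicate 1 gave 19 lower members, and leaving out immature replicate 3 gave 10. In pooled nectaries, fewer cells of a type and less RNA per cell cannot be told apart in any of these values.

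**Figure D1:**
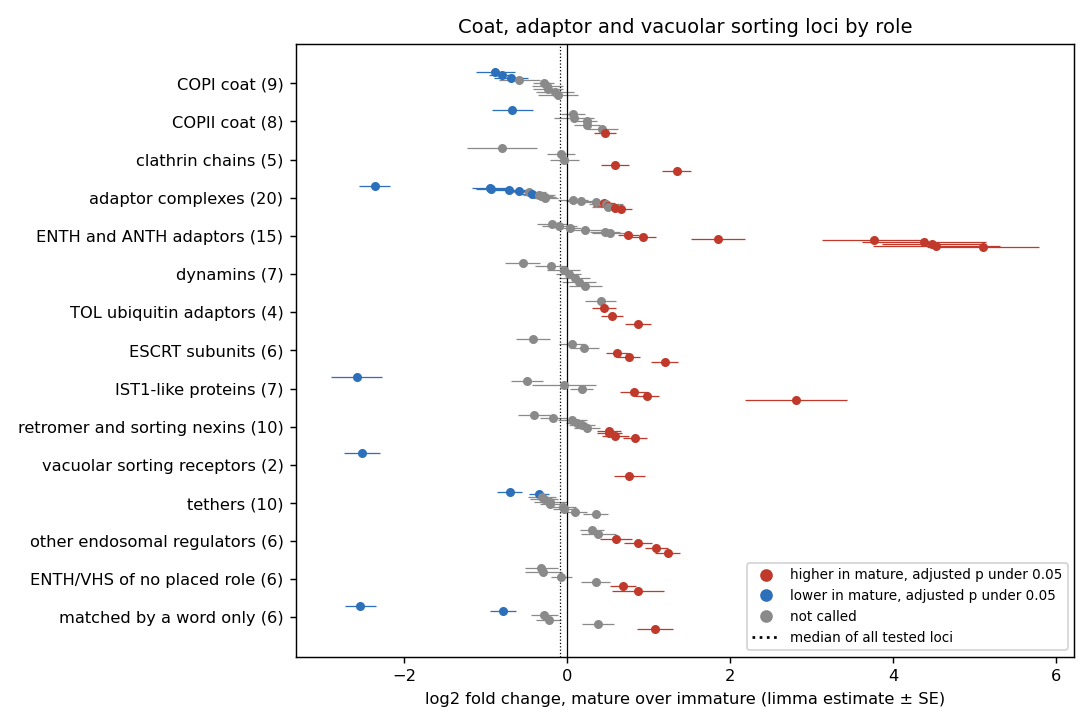
Log2 fold change of mature over immature nectaries (limma estimate with standard error) for the 119 tested members in 15 role groups, with the number of loci per group in brackets. Red and blue points passed an adjusted p of 0.05, and the dotted line is the median of all tested loci (-0.09). The ENTH and ANTH adaptors reached 5.10, while COPI, the dynamins and the tethers held no red point.

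COPI, the coatomer that buds from the Golgi, held no member called higher by limma, and 0 at an unadjusted p under 0.05. Of its 9 loci 3 fell, a share close to the 35.9% of all tested loci, and the median log2 fold change was -0.29. The locus Ta08900, a beta-prime subunit of the coat, had 1325, 1337 and 1921 normalized counts in immature replicates 1 to 3 and 988, 590 and 934 in mature replicates 1 to 3. It fell by 0.88 on the log2 scale (standard error 0.24, limma adjusted p = 0.0117), with no overlap between the stages. The beta subunit Ta16183 went from 673, 664 and 865 to 450, 387 and 415 (1.76-fold lower, adjusted p = 0.00192). The epsilon subunit Ta06463 went from 1268, 1214 and 1312 to 919, 562 and 934 (1.57-fold lower, adjusted p = 0.0188), and did not pass without immature replicate 1 or 3 (adjusted p up to 0.0559). The gamma subunit Ta22139 stood at 2496, 2428 and 3581 against 2095, 1318 and 2315 (adjusted p = 0.0702), and the other beta-prime locus, Ta16708, at 1894, 1797 and 1904 against 1578, 1434 and 1574 (adjusted p = 0.0792). Neither of these overlapped between the stages, although neither passed. Both were called lower with scaling to totals. The zeta subunit Ta06037, which the words had missed, also fell, by 0.45 on the log2 scale (adjusted p = 0.0215, not passing with its most abundant contig alone or without immature replicate 1 or 2, adjusted p up to 0.302). With scaling to totals 7 of the 9 COPI members were lower, and with median-ratio scaling 3.

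COPII buds from the endoplasmic reticulum. Its SEC23 and SEC24 proteins form the inner coat, SEC24 being the subunit that binds cargo, and of 7 tested loci 1 rose and 1 fell, where 28.4% and 35.9% of all tested loci did. With median-ratio scaling 4 were higher, SEC24A, Ta09781 and Ta25707 gaining the call (adjusted p = 0.0268, 0.0342 and 0.0212), and 1 was lower. SEC24C (Ta02750) went from 742, 776 and 912 to 1090, 1084 and 1164 normalized counts, 1.37-fold higher (adjusted p = 0.0165). SEC24A (Ta04177) stood at 1033, 1118 and 1227 against 1350, 1247 and 1385 (adjusted p = 0.15). A SEC23-type locus, Ta15980, matched to AT2G27460, went from 456, 390 and 529 to 347, 193 and 347, 1.55-fold lower (adjusted p = 0.0413). Both calls were marginal. SEC24C did not pass without immature replicate 1 or 2 or mature replicate 3 (adjusted p up to 0.0791), and Ta15980 did not pass without the variance trend, immature replicate 1 or 3, or mature replicate 2 (adjusted p up to 0.132). The other SEC23 loci were not called at log2 values of 0.07 (Ta14604), 0.09 (Ta05324), 0.24 (Ta09781) and 0.43 (Ta25707), and Ta21569 lay below the count minimum. Among COPII loci outside the members, all 3 matched to SAR1B, the small GTPase that starts the coat, were lower. Ta07464 went from 861, 805 and 998 to 342, 171 and 363 (3.04-fold lower, adjusted p = 0.00102), Ta26699 was 1.73-fold lower, and Ta26702, tested only through its immature mean, was 1.56-fold lower but did not pass without any one of the immature replicates or mature replicate 2 (adjusted p up to 0.0959). The outer coat subunit SEC13B (Ta09998) rose 1.83-fold (adjusted p = 0.016), and did not pass without immature replicate 1 or 2 or mature replicate 3 (adjusted p up to 0.0578).

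Clathrin forms a lattice from heavy and light chains, and here 2 of 3 light chains rose while the heavy chains were not called. Of the 5 clathrin loci 2 were thus higher and none lower, where 28.4% and 35.9% of all tested loci were. CLC3 (Ta11549) went from 102, 91 and 79 to 242, 196 and 258 normalized counts, 2.56-fold higher (log2 fold change 1.34, standard error 0.18, adjusted p = 0.000303). CLC3 was tested only through its mature mean, so that a fall could not have been called for it. CLC2 (Ta07382) went from 1232, 1184 and 1218 to 2077, 1449 and 2011, 1.52-fold higher (adjusted p = 0.0151, and up to 0.059 without immature replicate 2 or mature replicate 3). Neither overlapped between the stages. CLC1 (Ta16431) stood at 686, 763 and 929 against 880, 634 and 811 (adjusted p = 0.88). The heavy chain CHC1 (Ta16576) had 5383, 5291 and 6066 in immature and 5062, 4736 and 6118 in mature samples (adjusted p = 0.7), and CHC2 (Ta04279) 478, 589 and 928 against 443, 185 and 605 (adjusted p = 0.133), both with overlapping stages. CHC2 was called lower with scaling to totals (adjusted p = 0.0473), with the replicate number as a block (adjusted p = 0.0374) and without mature replicate 3 (adjusted p = 0.0498). Of the 42 shares of a locus in the summed counts of its subunit, taken over 26 sets of loci with the same subunit name, 28 did not overlap between the stages (66.7%, where 70.1% of all tested loci did not overlap in their own counts). For 3 samples against 3 the smallest two-sided exact permutation p is 0.1, and it was 0.15 after adjustment over the 42 shares for each of the 28. Among the light chains CLC3 took 4.35 ± 0.76% of the counts in immature and 8.18 ± 0.54% in mature nectaries (SD, n = 3 each), CLC2 57.9 ± 3.1% and 64.6 ± 0.90%, and CLC1 37.7 ± 3.9% and 27.2 ± 0.78%. Reads were assigned by blastn, so that reads of near-identical copies may have been counted on either locus, and all such shares are uncertain to that extent.

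Of the 20 loci of the adaptor complexes 4 were higher and 6 lower, where 28.4% and 35.9% of all tested loci were. With scaling to totals 2 were higher and 11 lower, and with median-ratio scaling 7 were higher and 6 lower. Without mature replicate 2 there were 7 higher, without immature replicate 2 there were 2, and without immature replicate 3 there were 3 lower. In AP-1, which works at the trans-Golgi network, the gamma subunits parted. Gamma-adaptin 1 (Ta15761) went from 413, 419 and 460 to 644, 638 and 658 (higher by 0.59 on the log2 scale, adjusted p = 0.00306), and the second AP-1 gamma locus, Ta23827, from 603, 569 and 675 to 351, 228 and 402 (1.88-fold lower, adjusted p = 0.00499). Neither locus overlapped between the stages. The share of Ta23827 in the gamma counts was 59.3%, 57.6% and 59.5% in immature and 35.3%, 26.3% and 37.9% in mature samples, with no overlap between the stages. The AP-1 mu subunit Ta09550 rose 1.58-fold, from 582, 593 and 685 to 1036, 984 and 912 (adjusted p = 0.00281), and the other mu locus, Ta18592, stood at 446, 450 and 530 against 597, 547 and 684 (adjusted p = 0.0585). The small subunit Ta22819 rose 1.36-fold (adjusted p = 0.0223), which did not hold with scaling to totals or without immature replicate 2 or 3 or mature replicate 3 (adjusted p up to 0.112), and its copy Ta04622 was not called (adjusted p = 0.162).

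**Figure D2:**
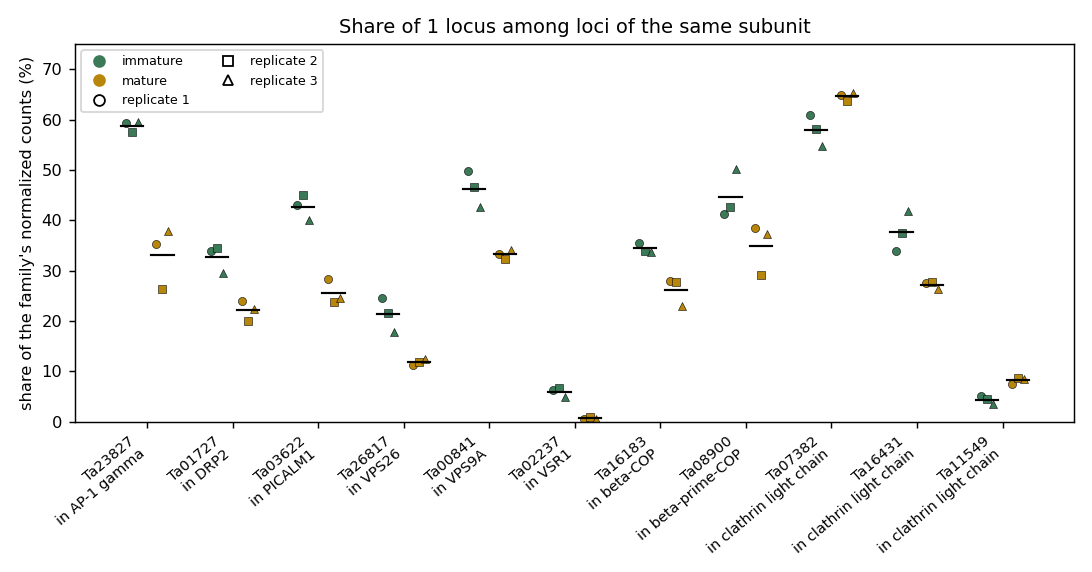
Share (%) of 1 locus in the summed normalized counts of the loci of the same subunit, for 11 of the 42 shares, in each immature (green) and mature (gold) sample, with the mean as a bar. The stages do not overlap in any of the 11, which were chosen after their values were seen. The share of Ta23827 among AP-1 gamma loci fell from 58.8% to 33.2% on average.

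In AP-2, the adaptor of endocytosis at the plasma membrane, both member loci fell. The mu subunit AP2M (Ta08999) went from 760, 696 and 832 to 594, 403 and 535 (1.49-fold lower, adjusted p = 0.0163), and an alpha-adaptin (Ta07201) from 846, 890 and 871 to 704, 565 and 680 (1.34-fold lower, adjusted p = 0.0239). Without immature replicate 1 or 3 AP2M did not pass (adjusted p up to 0.0552), nor did the alpha-adaptin without any one of the immature replicates (adjusted p up to 0.087). The beta-adaptin Ta08732, of the type shared by AP-1 and AP-2, went from 132, 132 and 121 to 74, 68 and 59 (1.92-fold lower, adjusted p = 0.00243), and its paralog Ta18442 stood at 1175, 1110 and 1443 against 1025, 673 and 1038 (adjusted p = 0.0754). The AP-2 small subunit, which the words had missed, was not called. The TPLATE complex is a second plant adaptor of endocytosis, found outside the members. Of its 9 loci 1 was higher and 1 lower, where 28.4% and 35.9% of all tested loci were. With scaling to totals 4 of the 9 were lower. The calls in the reported fit were a TPLATE locus (Ta06044, 1.33-fold higher) and TWD40-1 (Ta04095, 1.44-fold lower), and neither was stable. Ta06044 did not pass with scaling to totals or without any one sample other than mature replicate 3 (adjusted p up to 0.219), and TWD40-1 did not without immature replicate 2 or 3 (adjusted p up to 0.0627).

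AP-3 and AP-4 serve routes to the vacuole, and their subunits did not move together. Beta4-adaptin (Ta21771) went from 548, 567 and 748 to 423, 286 and 436 (1.63-fold lower, adjusted p = 0.0156, and up to 0.0574 without immature replicate 3). The AP-4 small subunit Ta20198, outside the members, rose by 0.59 on the log2 scale, from 389, 375 and 322 to 565, 529 and 540 (adjusted p = 0.00442). The AP-3 small subunit Ta04120 rose 1.43-fold (adjusted p = 0.0348), but not under scaling to totals, with the replicate block or without any one sample other than mature replicate 3 (adjusted p up to 0.158), and beta3-adaptin (Ta05663, outside the members) rose 1.39-fold (adjusted p = 0.0356, and up to 0.132 without immature replicate 1 or 2 or mature replicate 1 or 3). Of the 3 loci matched to delta-adaptin, the large subunit of AP-3, Ta17166 fell by 2.36 on the log2 scale (standard error 0.19, adjusted p = 2.58e-05). Its identity is uncertain, because the authors' locus table matches it to a lipid-transfer family protein, AT1G48750, and its contig to delta-adaptin, AT1G48760. The 2 other loci stood the other way, Ta20127 at 120, 99 and 128 against 174, 132 and 189 (adjusted p = 0.0503) and Ta17160 at 69, 73 and 95 against 116, 95 and 118 (adjusted p = 0.0743). Without Ta17166 the summed AP-3 members stood at 732, 697 and 788 in immature and 849, 807 and 757 in mature samples. With it they were at 4280, 3678 and 4195 against 1647, 1309 and 1420.

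The ENTH and ANTH adaptors, which bind phosphoinositides and clathrin, held the largest increases of the set. Of 14 tested loci 8 rose and none fell, where 28.4% and 35.9% of all tested loci did. Over 2-fold, 6 of the 14 were higher, against 13.8% of all tested loci. With scaling to totals 1 was lower, and with median-ratio scaling 10 were higher. PICALM5B (Ta14283) went from 9, 15 and 9 to 1146, 130 and 431 normalized counts, 51.7-fold higher (log2 fold change 5.10, standard error 0.69, adjusted p = 0.000337). PICALM5A (Ta17853) went from 6, 9 and 8 to 476, 76 and 190 (32.3-fold, adjusted p = 0.000383), and the AP180 locus Ta05373 from 3, 6 and 7 to 447, 49 and 122 (38.6-fold, adjusted p = 0.00123). The ANTH family loci Ta12117 and Ta06403 went from 5, 5 and 3 to 301, 39 and 106 (34.3-fold) and from 39, 35 and 31 to 1359, 165 and 511 (19.4-fold). In all 5 loci mature replicate 1 was highest and mature replicate 2 lowest, 6.26 to 9.12 times apart, and no locus overlapped between the stages. The calls held without any one sample wherever the locus was tested. Without mature replicate 1, Ta12117 and Ta05373 lay below the count minimum, and the rise without mature replicate 1 was 25.5-fold for PICALM5B, 17.3-fold for PICALM5A and 9.66-fold for Ta06403. All 5 were tested only through their mature mean, so that a fall could not have been called for them.

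The 10 pollen and anther markers found were also highest in mature replicate 1 and lowest in mature replicate 2, 3.79 to 15.7 times apart, with 8.77 for VGD1, a pollen tube pectin methylesterase. An IST1-like locus, Ta08891, shared the order, at 33, 42 and 31 in immature and 706, 91 and 245 in mature samples (9.83-fold higher, adjusted p = 0.00474, and 4.75-fold without mature replicate 1). The remaining 6 members over 2-fold higher had 0.83 to 2.14 times the counts of mature replicate 2 in mature replicate 1. A ratio above 5, a limit chosen after the values were seen, was found in 6 of the 12 members over 2-fold higher and in 10.4% of the 1629 loci over 2-fold higher. The full order of VGD1 over the mature samples was found in 9 of the 12 members, and in 48.7% of the 1629 loci. How much of these loci's counts came from pollen was not tested.

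**Figure D3:**
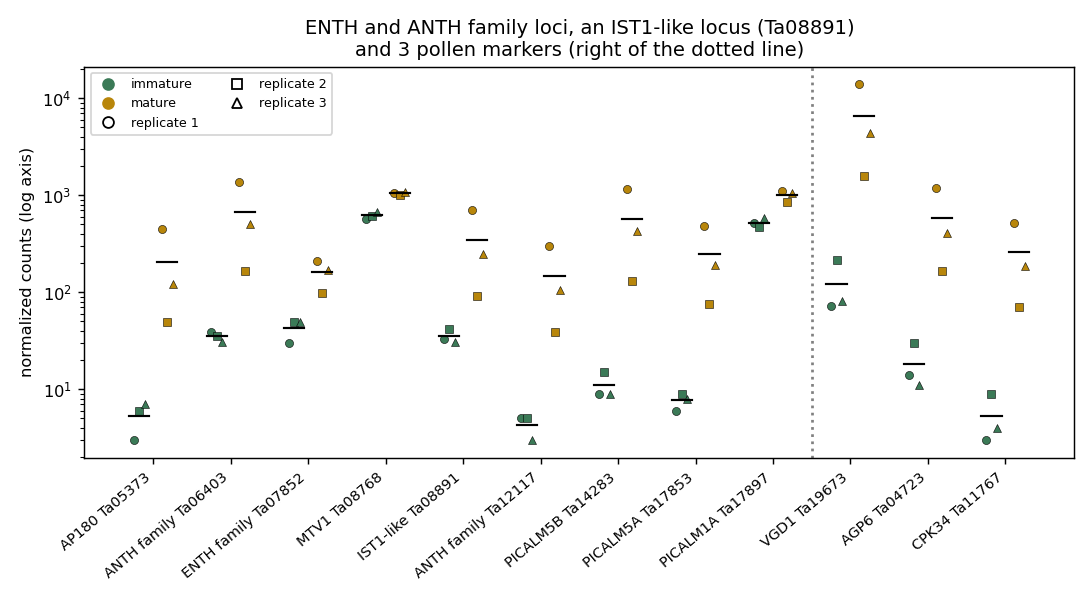
Normalized counts (log axis) in each sample of 8 ENTH or ANTH family loci and the IST1-like locus Ta08891, and, right of the dotted line, of 3 pollen markers, with immature samples green, mature samples gold and the mean of each stage as a bar. Mature replicate 1 (circle) lies above and mature replicate 2 (square) below the others in Ta05373, Ta06403, Ta12117, Ta17853, Ta14283 and Ta08891, as in the markers, while MTV1 and PICALM1A are close between replicates.

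Of the other loci of the family 3 rose. PICALM1A (Ta17897) went from 514, 467 and 585 to 1099, 847 and 1056 (1.92-fold higher, adjusted p = 0.00106), and its paralog PICALM1B (Ta03622) stood at 389, 382 and 390 against 433, 265 and 345 (adjusted p = 0.408, and 0.0451 as a fall with scaling to totals). PICALM1B took 42.7 ± 2.5% of the counts of the pair in immature and 25.6 ± 2.4% in mature nectaries (SD, n = 3 each). MTV1 (Ta08768), an epsin-like protein needed for vacuolar cargo in Arabidopsis, went from 575, 615 and 674 to 1047, 1004 and 1081 (1.68-fold, adjusted p = 0.00112). The ENTH family locus Ta07852 rose from 30, 49 and 49 to 212, 99 and 170 (3.76-fold, adjusted p = 0.00156), with mature replicate 1 highest and mature replicate 2 lowest, 2.14 times apart. It too was tested only through its mature mean. The stages did not overlap in these 3 loci that rose. The epsins EPS2 (Ta19281) and EPS1 (Ta05022) were not called, at log2 values of 0.46 and 0.03, although EPS2 was called higher with median-ratio scaling, with the replicate block, and without immature replicate 3 or mature replicate 2. Ta03595, an ANTH family locus below the count minimum, had 47, 43 and 36 against 159, 64 and 75 and was not tested. Without the ENTH and ANTH adaptors, a choice made after the data were seen, 28 members were higher and 16 lower, with 6 over 2-fold higher.

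Dynamins, the GTPases that pinch off vesicles and divide organelles, were not called by limma in any of the 7 member loci. Of all tested loci 64.3% were called. At an unadjusted p under 0.05, 0 dynamins were higher and 1 lower. With scaling to totals 2 were lower. With median-ratio scaling, with the replicate block or without mature replicate 1, only DRP2A was lower. DRP2B was called higher with its most abundant contig alone (limma adjusted p = 0.0384). DRP1A (Ta09923), a dynamin of the cell plate and plasma membrane, had 2448, 2139 and 2818 counts in immature and 2585, 1696 and 2226 in mature samples (adjusted p = 0.40), and DRP1C (Ta03614) and DRP1E (Ta03352) had log2 values of -0.04 and 0.15. DRP2A (Ta01727) stood at 412, 422 and 479 against 375, 212 and 335 (adjusted p = 0.0541) and DRP2B (Ta13604) at 802, 803 and 1145 against 1195, 845 and 1164 (adjusted p = 0.36). The share of DRP2A in the pair was 32.6 ± 2.7% in immature and 22.1 ± 1.9% in mature nectaries (SD, n = 3 each). DRP5B (Ta01149), a dynamin of chloroplast and peroxisome division that the words had missed, went from 2487, 2380 and 3182 to 1722, 1743 and 1719 (1.55-fold lower, adjusted p = 0.00809).

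Loci that sort ubiquitinated cargo into multivesicular bodies rose in most cases. TOL proteins take the place of ESCRT-0 in plants. Of the 4 member loci 3 rose and none fell, where 28.4% and 35.9% of all tested loci did. TOL6 (Ta02218) went from 279, 280 and 345 to 584, 463 and 613 (1.84-fold higher, adjusted p = 0.00181), TOL2 (Ta15926) rose 1.46-fold, and TOL5 (Ta02072) 1.36-fold, the last not passing without immature replicate 1 or 2 or mature replicate 3 (adjusted p up to 0.115). TOL9 (Ta02736) stood at 801, 745 and 867 against 1198, 805 and 1259 (adjusted p = 0.0906). Of 3 TOL loci outside the members 1 rose, so that 4 of 7 were higher in all and none lower. TOL1 (Ta04472) rose from 564, 539 and 751 to 1901, 1377 and 1710 (2.69-fold, adjusted p = 0.000273). A further locus matched to TOL1, Ta14040, stood at 131, 102 and 176 against 255, 142 and 232 (adjusted p = 0.0843), and TOL3 (Ta16976) at 825, 742 and 929 against 1127, 706 and 1055 (adjusted p = 0.433), both with overlapping stages. Without mature replicate 2 both were called higher, and Ta14040 also with median-ratio scaling, with the replicate block and without immature replicate 3.

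Of the 6 ESCRT members, 3 rose and none fell, where 28.4% and 35.9% of all tested loci did. VPS28, a subunit of ESCRT-I, has 2 loci, of which VPS28-2 (Ta25235) went from 121, 121 and 108 to 298, 218 and 297 (2.32-fold higher, adjusted p = 0.000449) and VPS28-1 (Ta04020) from 467, 440 and 477 to 914, 711 and 724 (1.70-fold, adjusted p = 0.00209). VPS22 (Ta20598), of ESCRT-II, rose from 140, 130 and 127 to 211, 198 and 199 (1.53-fold, adjusted p = 0.00467). The stages did not overlap in any of the 3. Its partner VPS36 (Ta09313) stood at 281, 261 and 329 against 268, 158 and 238 (adjusted p = 0.117), and CHMP1B (Ta01303), an ESCRT-III protein, at 233, 211 and 263 against 259, 208 and 269. The locus Ta12048 summed contigs of different ESCRT-III genes that moved in opposite ways. Its contig matched to VPS2.3 had 227, 191 and 254 in immature and 469, 325 and 451 in mature samples, and its contig matched to AT5G44560, an SNF7 family protein, 160, 144 and 130 against 23, 8 and 22. The sum was not called (adjusted p = 0.319), whereas the more abundant contig alone was higher (adjusted p = 0.00384).

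The description words missed 20 further loci that a role table of Arabidopsis genes placed in the ESCRT complexes or with them. Besides subunits, they included associated proteins such as LIP5, SKD1, ALIX, AMSH1 and AMSH3. All 20 were higher in mature nectaries, 10 of them by over 2-fold, where 28.4% and 13.8% of all tested loci were. Their log2 fold changes lay between 0.60 (VPS60.2, Ta09304) and 1.46 (VPS23B, Ta04773), with a median of 0.96. The stages overlapped in none of the 20, and in either direction 70.1% of all tested loci did not overlap. VPS23B was tested only through its mature mean, so that a fall could not have been called for it. VPS37-2 (Ta11304), of ESCRT-I, went from 319, 319 and 380 to 865, 780 and 879 (2.48-fold, adjusted p = 8.43e-05). VPS24.1 (Ta07174), of ESCRT-III, went from 416, 429 and 496 to 1217, 998 and 1078 (2.46-fold, adjusted p = 0.000112). LIP5 (Ta20109), which activates the ATPase SKD1, went from 259, 201 and 234 to 703, 463 and 687 (2.67-fold, adjusted p = 0.000403), and the SKD1 loci Ta17976 and Ta23150, which take ESCRT-III apart, rose 1.81-fold and 1.89-fold. The 20 together summed to 8735 ± 664 normalized counts in immature and 17340.3 ± 2625 in mature nectaries (SD, n = 3 each). Members and further loci combined, 23 of 26 ESCRT loci were higher and none lower, although VPS36 was lower with scaling to totals or without mature replicate 1. The 20 were called higher with each scaling, with the replicate block and without any one sample, and 13 of them remained in the test with a filter at 500, all called higher.

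**Figure D4:**
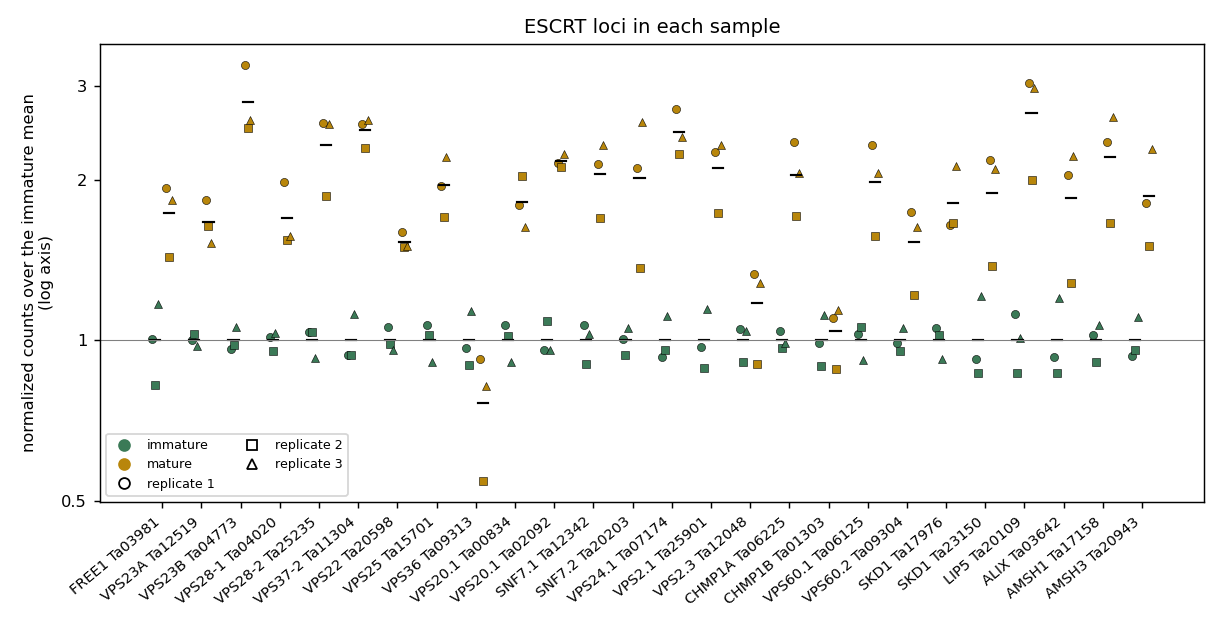
Normalized counts of 26 ESCRT loci in each sample, divided by the mean of the immature samples of the locus (log axis), with immature samples green, mature samples gold and the mean of each stage as a bar. All mature samples lie above all immature samples in 23 loci, the exceptions being VPS36, VPS2.3 (Ta12048) and CHMP1B. The stages did not overlap, in either direction, in 70.1% of all tested loci.

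IST1-like proteins, which in other organisms regulate the VPS4 ATPase, held 1 of the 4 members over 2-fold lower and 1 of the 12 over 2-fold higher. That was 1 of 7 loci each way, where 23.0% and 13.8% of all tested loci were. Of 7 loci 3 rose and 1 fell, where 28.4% and 35.9% of all tested loci did. With either other scaling and without mature replicate 1, 2 fell, Ta12894 gaining the call (adjusted p up to 0.0409). Ta04654 (AT4G35730) went from 192, 186 and 165 to 40, 18 and 35, and fell by 2.58 on the log2 scale (standard error 0.31, adjusted p = 0.000192). Ta02781 (AT4G32350) went from 616, 616 and 720 to 1463, 1150 and 1243 (1.98-fold higher, adjusted p = 0.000598) and Ta19320 (AT1G34220) from 320, 330 and 398 to 669, 496 and 701 (1.78-fold, adjusted p = 0.00356). The stages did not overlap in these 3 loci or in Ta08891, described above with the pollen markers. Ta04654 was tested only through its immature mean and Ta08891 only through its mature mean.

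Of the 10 loci of retromer, which retrieves receptors from endosomes, and the sorting nexins 4 rose and none fell, where 28.4% of all tested loci rose. With scaling to totals 4 were higher and 2 lower, namely VPS26B (adjusted p = 0.028) and the sorting nexin SNX1 (Ta00560, adjusted p = 0.0355). All 3 VPS35 loci, the scaffold of the complex, were higher. VPS35B (Ta10237) went from 271, 277 and 295 to 551, 418 and 545 (1.80-fold, adjusted p = 0.00154), VPS35A (Ta25535) from 698, 667 and 844 to 1050, 963 and 1136 (1.43-fold) and VPS35C (Ta17695) from 781, 790 and 911 to 1358, 1025 and 1187 (1.44-fold). VPS26A (Ta21596) went from 472, 465 and 569 to 805, 622 and 850 (1.51-fold, adjusted p = 0.0137), and VPS26B (Ta26817) stood at 154, 128 and 123 against 102, 84 and 121 (adjusted p = 0.102). The share of VPS26B in the pair was 21.3 ± 3.4% in immature and 11.9 ± 0.61% in mature nectaries (SD, n = 3 each). Without immature replicate 1 or 2, only VPS35B of these 4 was called, and VPS35A and VPS26A also did not pass without mature replicate 3 (adjusted p up to 0.0694 over the 3 loci). In the reported fit the sorting nexins and, outside the members, the third core subunit VPS29 were not called.

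The vacuolar sorting receptor VSR1, which carries soluble proteins to the vacuole, matched 2 loci that moved in opposite directions. Ta19519 went from 2758, 2771 and 3798 to 4974, 4716 and 6014 (1.68-fold higher, adjusted p = 0.00801), and Ta02237 from 182, 197 and 192 to 27, 41 and 31, and fell by 2.51 on the log2 scale (standard error 0.22, adjusted p = 3.86e-05). Neither overlapped between the stages, and the share of Ta02237 in the pair went from 5.88 ± 0.95% to 0.638 ± 0.19% (SD, n = 3 each). Of 3 receptor loci outside the members 1 rose and none fell, where 28.4% and 35.9% of all tested loci did. A VSR3 locus (Ta25193) rose 1.44-fold (adjusted p = 0.014), which did not hold under scaling to totals or without immature replicate 2 or mature replicate 3 (adjusted p up to 0.0936). The other VSR3 locus, Ta23875 (1.11-fold higher, adjusted p = 0.421), and RMR1 (Ta21286, adjusted p = 0.861) were not called.

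Tethers, which hold vesicles at their target membrane, held no member called higher by limma among 10, with 1 at an unadjusted p under 0.05. Of the 10, 2 fell. Of all tested loci 28.4% rose and 35.9% fell. With scaling to totals 5 were lower, and with median-ratio scaling 1 was higher and 1 lower. VPS3 (Ta15838), matched to the subunit specific to CORVET, went from 302, 303 and 355 to 214, 171 and 203 (1.63-fold lower, adjusted p = 0.00342). VPS52 (Ta11887), of the Golgi tether GARP, fell by 0.35 on the log2 scale (adjusted p = 0.0328), and did not pass with median-ratio scaling, with its most abundant contig alone, or without any one immature replicate or mature replicate 3 (adjusted p up to 0.387). Ta04408, a VPS51 family locus, stood at 909, 878 and 1044 against 1142, 869 and 1027.

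Of the other endosomal regulators 4 of 6 rose and none fell, where 28.4% and 35.9% of all tested loci did. With median-ratio scaling all 6 were higher. The VPS55 family loci, small endosomal membrane proteins, rose from 163, 165 and 142 to 318, 385 and 409 (Ta23503, 2.37-fold, adjusted p = 0.000205) and from 203, 169 and 141 to 311, 346 and 275 (Ta16613, 1.82-fold, adjusted p = 0.00281). VPS9A, the exchange factor of the endosomal RAB5 GTPases, matched 2 loci, of which Ta01146 went from 155, 188 and 186 to 397, 397 and 339 (2.14-fold, adjusted p = 0.000308) and Ta00841 stood at 153, 164 and 138 against 198, 189 and 176 (adjusted p = 0.0931). VPS34 (Ta15245), the phosphatidylinositol 3-kinase of endosomes, stood at 391, 363 and 497 against 706, 490 and 709, with overlapping stages (1.52-fold, adjusted p = 0.0259), and did not pass without immature replicate 1 or 2 or mature replicate 1 or 3 (adjusted p up to 0.0954).

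The members without a placed role in coats or sorting also held calls. Ta01477, a ribosomal L12 or ClpS family protein taken by the word adaptor, went from 288, 242 and 258 to 53, 43 and 38, and fell by 2.54 on the log2 scale (adjusted p = 1.83e-05), and is not a vesicle coat protein. SNAP33 (Ta01836), a SNARE of membrane fusion, went from 278, 273 and 349 to 823, 459 and 662 (2.16-fold higher, adjusted p = 0.00319). Ta08880, described as similar to VPS9, was 1.72-fold lower (adjusted p = 0.00301). Of the ENTH and VHS loci of no placed role Ta02580 rose 1.61-fold (adjusted p = 0.00513), and Ta09716 rose 1.87-fold (adjusted p = 0.0437), with overlapping stages and no call without the variance trend or without immature replicate 1 or 2 or mature replicate 1 or 3 (adjusted p up to 0.138).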

How the data were processed

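RNA of 3 immature and 3 mature nectary samples was measured. The deposited scores were made by the authors from contigs assembled with Trinity and merged with an earlier transcriptome: reads were counted on contigs by blastn (E-value cutoff 1e-05), upper-quartile normalized and rounded to whole numbers, so no count model was applied. The authors' means, SDs, ratios and DESeq p-values were not used, nor was the second deposited table, a subset of the first. Contigs were summed per locus, and a locus took the Arabidopsis match of its most abundant contig. Of the 121 members 94 had 1 contig, 7 summed contigs of different matches, and 17 shared an Arabidopsis match. In the rows of the authors' locus table at hand, 3 of 31 members had another match.

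Loci averaging 100 or more normalized counts in one of the stages were tested on log2(sum + 1) with limma 3.58.1 (R 4.3.3, variance trend, two-sided, Benjamini-Hochberg adjusted). The fit was also run on simulated counts with equal samples, the same spread setting for all loci and few changed loci. That run cannot show how the fit performs on samples as uneven as these. Fold changes are ratios of mean normalized counts. The log2 values are differences between stage means of log2 counts, with the pseudocount of 1. The pseudocount makes them understate changes of low loci. A fold can also exceed its log2 value because 1 high sample weighs more in a mean of counts. Ta08891, with mature samples far apart, was 9.83-fold higher but had a log2 value of 2.81. Tables and figures used Python 3.11.15, pandas 2.3.3, numpy 2.4.6, scipy 1.17.1 and matplotlib 3.10.9. The number of counted reads was estimated from the spacing of low values (correlation of the fit 0.73 to 0.988) and is approximate. Lengths were not at hand, so a level or a share was compared between stages and not between loci. Named members were, per role group, the one with the highest mean and the largest called rise and fall, the 6 largest rises and falls of all, and paralogs of these. Other named loci, the role groups, the shares shown and the further loci named were chosen after their values were seen. The members and lists were chosen with earlier results of these data known. Alternatives were other pseudocounts, filters and scalings, the most abundant contig, limma without the trend, a replicate block and leaving out each sample. The replicate numbers do not pair the samples by the labels, and p-values measure the spread between pools. No genome was used.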

Additional observations from a re-analysis of the deposited data

How the results depend on the processing

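Of the 52 called members, 36 stayed called under every alternative and without any one sample wherever they were tested, 5 lost the call under another processing choice and 16 when a sample was left out, and none changed direction. Of the 67 members not called 41 were called under some alternative or without some sample, 22 of them as lower with scaling to totals, 16 as higher and 2 as lower with median-ratio scaling, and 9 with the replicate block. With a filter at 500 normalized counts, which tests fewer loci, 19 members were higher and 9 lower, 3 and 1 of them by over 2-fold. Scaling to totals without ribosomal RNA and organelles, which moved the median of all tested loci from -0.09 to -0.26, gave 38 lower members, 7 of them by over 2-fold, and 16 lower loci among the other trafficking loci, against 9. It turned the summed clathrin chains to a ratio of 0.923, and the log2 fold change of Ta05324 to -0.066, Ta14604 to -0.078, Ta05022 to -0.12, Ta03352 to -0.0060, Ta01303 to -0.098 and Ta04408 to -0.056, none of them called in the reported fit. Median-ratio scaling, which moved that median to 0.03, gave sums of 1.03 for dynamins and 1.07 for members matched by a word only, and log2 values of 0.026 for Ta16576, 0.070 for Ta16431, 0.062 for Ta03614 and 0.068 for Ta21286. The most abundant contig gave 0.024 for Ta16576 and -0.15 for Ta01303. Without the ENTH and ANTH adaptors, a choice made after the values were seen, 6 members were over 2-fold higher. Why the other values moved was not tested.

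Leaving out 1 sample gave 26 to 47 higher and 10 to 19 lower members, 9 to 16 and 4 to 6 by over 2-fold, and 22 to 29 higher and 5 to 9 lower other loci. Sums ranged from 0.954 to 1.11 (clathrin chains), 0.895 to 1.07 (dynamins) and 0.909 to 1.06 (matched by a word only). Log2 values ranged from -0.022 to 0.17 (Ta01303), -0.041 to 0.35 (Ta03352), -0.17 to 0.15 (Ta03614), 0.0057 to 0.20 (Ta04408), -0.032 to 0.12 (Ta05022), -0.046 to 0.33 (Ta05324), -0.0093 to 0.17 (Ta14604), -0.13 to 0.10 (Ta16431), -0.19 to -0.0012 (Ta16576) and -0.11 to 0.083 (Ta21286).

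With the replicate number as a block 40 members were higher and 20 lower. Samples sharing a number deviated together by correlations of -0.07, 0.01 and 0.20, so they were not treated as pairs.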

Other observations

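Outside the members, 8 loci of auxilin-like proteins and ARF exchange factors were also tested. Of the 8, 3 were lower and none higher, where 35.9% and 28.4% of all tested loci were. The auxilin-like locus Ta10145 (AUL1), of a family that strips clathrin from vesicles, went from 1418, 1363 and 1819 to 308, 202 and 245 normalized counts, and fell by 2.61 on the log2 scale (standard error 0.19, limma adjusted p = 1.69e-05), with no overlap between the stages. The other auxilin-like locus was not called. Of 6 loci of ARF exchange factors, which recruit COPI and AP-1 coats to the Golgi and trans-Golgi network, 2 fell and none rose, a share close to the 35.9% of all tested loci. BIG5 (Ta20323) went from 1307, 1399 and 1669 to 758, 560 and 757 (2.11-fold lower, adjusted p = 0.000811), and BIG2 (Ta03277) was 1.37-fold lower (adjusted p = 0.0165, and up to 0.0619 without immature replicate 1 or 2). Over all 61 other trafficking loci 26 were higher and 9 lower, where 28.4% and 35.9% of all tested loci were. Of the 26, 20 were the ESCRT loci described above. With scaling to totals 16 of the 61 were lower, and without immature replicate 2 there were 5.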
